A study of Homo sapiens with 45 samples.

Results

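In Jurkat cells, 80 of 38557 genes stood lower after 6 h of the inhibitor BRM014 and higher after 8 d of it, each time beside DMSO libraries of the same time point. They were chosen from the measured values themselves. A member had a BRM014 minus DMSO difference of mean log2(TPM + 1) at or below -0.6 at 6 h, a difference at or above 0.3 at 8 d, and a mean of at least 5 TPM (transcripts per 1e+06, a level per gene length) in DMSO at 6 h. The first and the last of these limits alone were met by 671 genes, and all limits together by 83, of which 3 were among 4 genes left out by name. Every difference among these 4 groups is therefore given as a description with no test, and tests are kept for libraries that took no part in the choice.

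The 15 groups of 3 RNA-seq libraries came from 4 human T-cell acute lymphoblastic leukaemia (T-ALL) lines. Jurkat groups received 1 uM BRM014 or 0.01% DMSO for 6 h or 8 d. Cas9-expressing Jurkat cells received guides against SMARCA4 (gSMARCA4), SMARCA4 and SMARCA2 (gSMARCA4_A2), ARID1A (gARID1A), ARID1A and ARID1B (gARID1A_1B) or the AAVS1 site (gAAVS1, the control), had puromycin for 4 days, and were collected at day 10. Cells of KOPT-K1, TALL-1 and CCRF-CEM received 1 uM BRM014 or 0.01% DMSO for 6 h. The labels do not say whether guided cells were pools or clones. They call the libraries biological replicates without naming separate cultures, so p-values measure the spread between these libraries only. Jurkat RNA came from a Maxwell extraction and a non-directional kit, and RNA of the other lines from RNeasy columns and a directional kit.

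SWI/SNF (BAF) complexes use ATP to slide or evict nucleosomes and keep enhancers and promoters accessible, and SMARCA4 and SMARCA2 are their alternative ATPases. ARID1A and ARID1B are the alternative large subunits of the canonical form, cBAF. BRM014 blocks both ATPases at once. In leukaemic T cells, enhancers of lymphocyte signalling and transcription factor genes depend on such remodelling, and short-lived mRNAs can change within hours.

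Depth was 29.7 to 47.9 M reads per Jurkat library and 19.7 to 27.0 M in the remaining lines, and counting error was largest for rows with few reads, such as the short non-coding ones. The 9 T-lineage markers used averaged at least 1 TPM in every group except CD2 in CCRF-CEM with BRM014, with sums of 1446 to 2247 TPM in Jurkat and 2985 to 4098 TPM in the other lines. In Jurkat these sums moved as the members did, at 1459 to 1505 TPM with BRM014 against 1882 to 1989 TPM with DMSO at 6 h, and 2087 to 2247 TPM with BRM014 against 1534 to 1620 TPM with DMSO at 8 d. In KOPT-K1 they were 3178 to 3391 TPM with BRM014 against 3879 to 4091 TPM with DMSO. The groups overlapped in CCRF-CEM, at 2985 to 3710 TPM with BRM014 against 3147 to 3398 TPM with DMSO. They also overlapped in TALL-1, at 3719 to 4098 TPM against 3622 to 3825 TPM. Sums over 8 myeloid markers stayed at or below 1.14 TPM. Sums over 8 B-lineage markers reached 151 TPM in CCRF-CEM. In Jurkat they were 11.5 to 14.5 TPM with BRM014 against 17.6 to 21.7 TPM with DMSO at 6 h, and 3.15 to 3.62 TPM with BRM014 against 12.7 to 16.4 TPM with DMSO at 8 d, with CD79A and CD79B alone at 1 TPM or more. The part of such shifts in the values of the members was not tested. In bulk RNA, fewer cells of a type and less RNA per cell cannot be told apart.

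The size of the pattern differed widely among members. The 6 h difference ran between -3.30 and -0.60, with a median of -0.82, and was at or below -1 in 22 members. The 8 d difference ran between 0.30 and 2.97, with a median of 0.52, and reached 1 in 7 members. All 3 BRM014 libraries lay below all 3 DMSO libraries at 6 h in 77 of 80 members, as in 22.5% of all genes tested. All 3 lay above all 3 DMSO libraries at 8 d in 72 of 80 members, as in 36.3% of all genes tested. Both shares follow from the choice of members. The libraries overlapped at 6 h in MIR4754, ETV5 and SNORA28, and at 8 d in LOC101059954, MIR4520-2, MIR6875, GAS6, TPM2, MIR6742, ETV5 and GPR174. At the limits, RIPK1 was just inside with a 6 h difference of -0.60025 and LOC100505585 just outside with -0.59854, GPR174 was inside with an 8 d difference of 0.301 and FLT1 outside with 0.297, and PLXNA3 was inside with 5.04 TPM in DMSO at 6 h and FGFR1 outside with 4.90 TPM.

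The DMSO controls differed between the time points, and for many members they carried part of the pattern. DMSO at 8 d stood below DMSO at 6 h in 61 of 80 members and above it in 19, with a median difference of -0.25 in the members against -0.0045 over all genes tested. The difference was at or below -0.3 in 38 members, as in 10.5% of all genes tested, and at or above 0.3 in 4, as in 10.6%. The choice of members favours a high DMSO level at 6 h and a low one at 8 d. How far these numbers go beyond that choice was not tested. Set beside the 6 h control in place of the 8 d control, BRM014 at 8 d was higher in 62 members, by at least 0.3 in 47 of them, and lower in 18, by at least 0.3 in 6 of them. BRM014 at 8 d was above BRM014 at 6 h in 79 of 80 members, all but HSPA1B. The choice of members favours this too, since it asks for BRM014 levels low at 6 h and high at 8 d beside their controls. The 18 members that stayed below their 6 h control count as higher at 8 d because the control at 8 d was lower still. Time in culture, passage and handling were not separated by the labels, so what moved the controls was not tested.

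**Figure D1:**
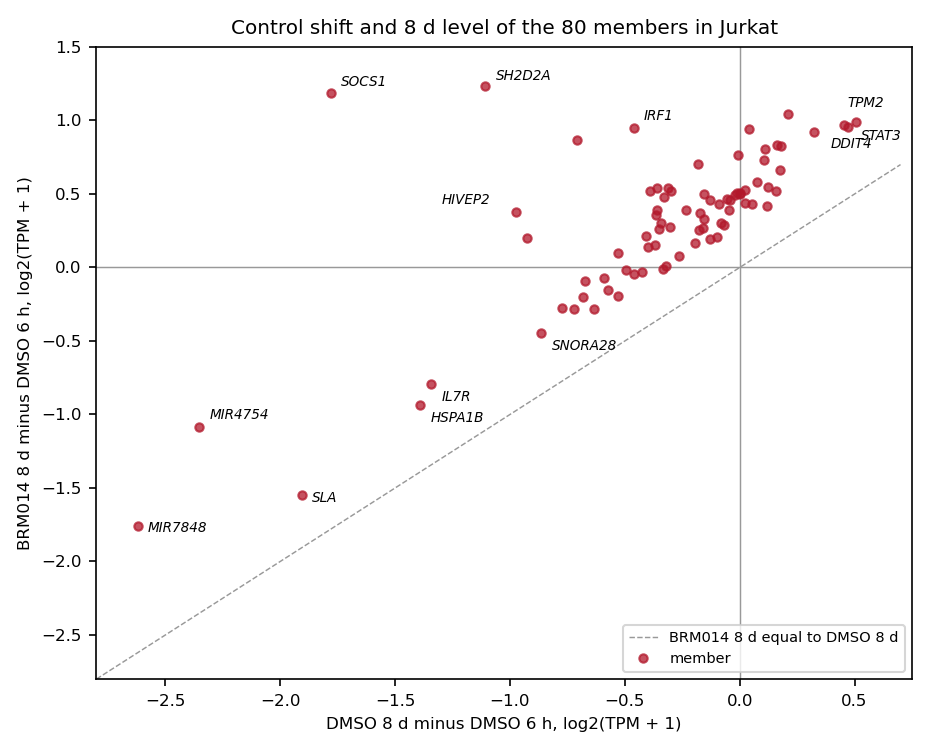
Each point is a member. The x axis gives DMSO 8 d minus DMSO 6 h and the y axis BRM014 8 d minus DMSO 6 h, both as differences of mean log2(TPM + 1) over 3 libraries each in Jurkat, and the dashed line marks BRM014 8 d equal to DMSO 8 d. Of 80 members, 62 lie above 0 on the y axis and 61 lie left of 0 on the x axis, with MIR7848, MIR4754 and SLA far to the lower left and SOCS1 and SH2D2A high on the left.

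Genes of cytokine, interferon and death-receptor signalling made up 9 members, a grouping made by hand once the members were known. Their median difference was -0.71 at 6 h and 0.61 at 8 d, and DMSO fell short of its 6 h level by at least 0.3 in 6 of the 9. SOCS1, a feedback inhibitor of JAK kinases (chromosome 16, 11254417 to 11256204, hg38), had 2.50, 3.72 and 2.46 TPM in BRM014 6 h libraries, against 4.13, 8.62 and 4.10 TPM in DMSO 6 h libraries. It had 13.2, 12.5 and 14.55 TPM in BRM014 8 d libraries, against 0.620, 1.07 and 0.845 TPM in DMSO 8 d libraries. The DMSO groups did not overlap each other, with 8 d lower, and the BRM014 8 d libraries lay above all 9 others, so both the control and the treated level moved. IRF1, a transcription factor of interferon responses (chromosome 5, 132481609 to 132490773), had 10.2, 12.3 and 10.2 TPM with BRM014 at 6 h, against 18.0, 19.1 and 18.3 TPM with DMSO, and 39.0, 33.0 and 38.1 TPM with BRM014 at 8 d, against 11.8, 13.8 and 14.0 TPM with DMSO. Its 8 d BRM014 level was above both controls.

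IL7R, the receptor chain for interleukin 7 (chromosome 5, 35856891 to 35879603), shows the other form of the pattern. It had 4.94, 4.71 and 4.48 TPM in BRM014 6 h libraries, against 15.0, 12.1 and 11.4 TPM in DMSO 6 h libraries. At 8 d it had 6.83, 7.11 and 6.84 TPM with BRM014, against 4.72, 4.85 and 3.75 TPM with DMSO. The 8 d BRM014 libraries lay below every DMSO 6 h library and above every DMSO 8 d library, and the difference between the controls (-1.34) was larger than the 8 d difference (0.55). STAT3, a transcription factor activated by cytokine receptors (chromosome 17, 42313324 to 42388442), differed in the other direction between the controls: 31.9, 32.3 and 31.9 TPM with BRM014 at 6 h, against 48.9, 51.9 and 50.7 TPM with DMSO, and 97.6, 97.2 and 101 TPM with BRM014 at 8 d, against 85.9, 64.0 and 63.5 TPM with DMSO. Its BRM014 8 d libraries were the highest of the 12.

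Lymphocyte signalling and surface genes made up 14 members, with a median of -0.99 at 6 h and 0.48 at 8 d. SLA, an adaptor that dampens T cell receptor signalling (chromosome 8, 133036728 to 133102602), was the most abundant member. It had 50.9, 82.4 and 46.1 TPM in BRM014 6 h libraries, against 343, 490.0 and 358 TPM in DMSO 6 h libraries, and 123, 129 and 149 TPM in BRM014 8 d libraries, against 95.1, 104 and 113 TPM in DMSO 8 d libraries. DMSO alone differed by -1.91 on the log2 scale, and the 8 d BRM014 level stayed -1.55 from the 6 h control. gAAVS1 libraries, collected at day 10, had 130.3, 133 and 124 TPM, nearer to DMSO at 8 d than to DMSO at 6 h.

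SH2D2A, an adaptor of T cell signalling (chromosome 1, 156806243 to 156816848), had 12.2, 18.0 and 10.4 TPM with BRM014 at 6 h, against 27.7, 31.9 and 22.8 TPM with DMSO, and 62.8, 63.1 and 70.3 TPM with BRM014 at 8 d, against 11.4, 11.8 and 13.1 TPM with DMSO. The Jurkat kit does not separate strands, so the SH2D2A value is uncertain. CD82, a tetraspanin of the cell surface (chromosome 11, 44564409 to 44620358), had 26.4, 27.2 and 25.7 TPM with BRM014 at 6 h, against 66.7, 105 and 72.8 TPM with DMSO, and 94.8, 84.7 and 96.95 TPM with BRM014 at 8 d, against 43.2, 41.8 and 40.0 TPM with DMSO.

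Other lymphocyte genes returned close to or beyond the 6 h control. RAC2, a small GTPase of blood cells (chromosome 22, 37225270 to 37244269), had 71.0, 83.6 and 70.9 TPM with BRM014 at 6 h, against 156, 169.9 and 161 TPM with DMSO, and 246, 211 and 235 TPM with BRM014 at 8 d, against 158, 149.9 and 131 TPM with DMSO. All 3 BRM014 8 d libraries were above all 6 DMSO libraries. LAT, the membrane scaffold of T cell receptor signalling (chromosome 16, 28984803 to 28990784), had 31.1, 46.2 and 28.8 TPM with BRM014 at 6 h, against 87.6, 117 and 88.0 TPM with DMSO, and 96.8, 88.0 and 96.8 TPM with BRM014 at 8 d, against 72.1, 73.1 and 65.3 TPM with DMSO. Here the 8 d BRM014 libraries lay within the range of the DMSO 6 h libraries. PTPN7, a phosphatase that acts on MAP kinases (chromosome 1, 202147013 to 202161588), had 68.3, 97.5 and 67.6 TPM with BRM014 at 6 h, against 142, 187 and 142 TPM with DMSO, and 132, 123 and 129 TPM with BRM014 at 8 d, against 104, 95.7 and 99.9 TPM with DMSO. Its 8 d BRM014 libraries stayed below all 3 DMSO 6 h libraries.

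**Figure D2:**
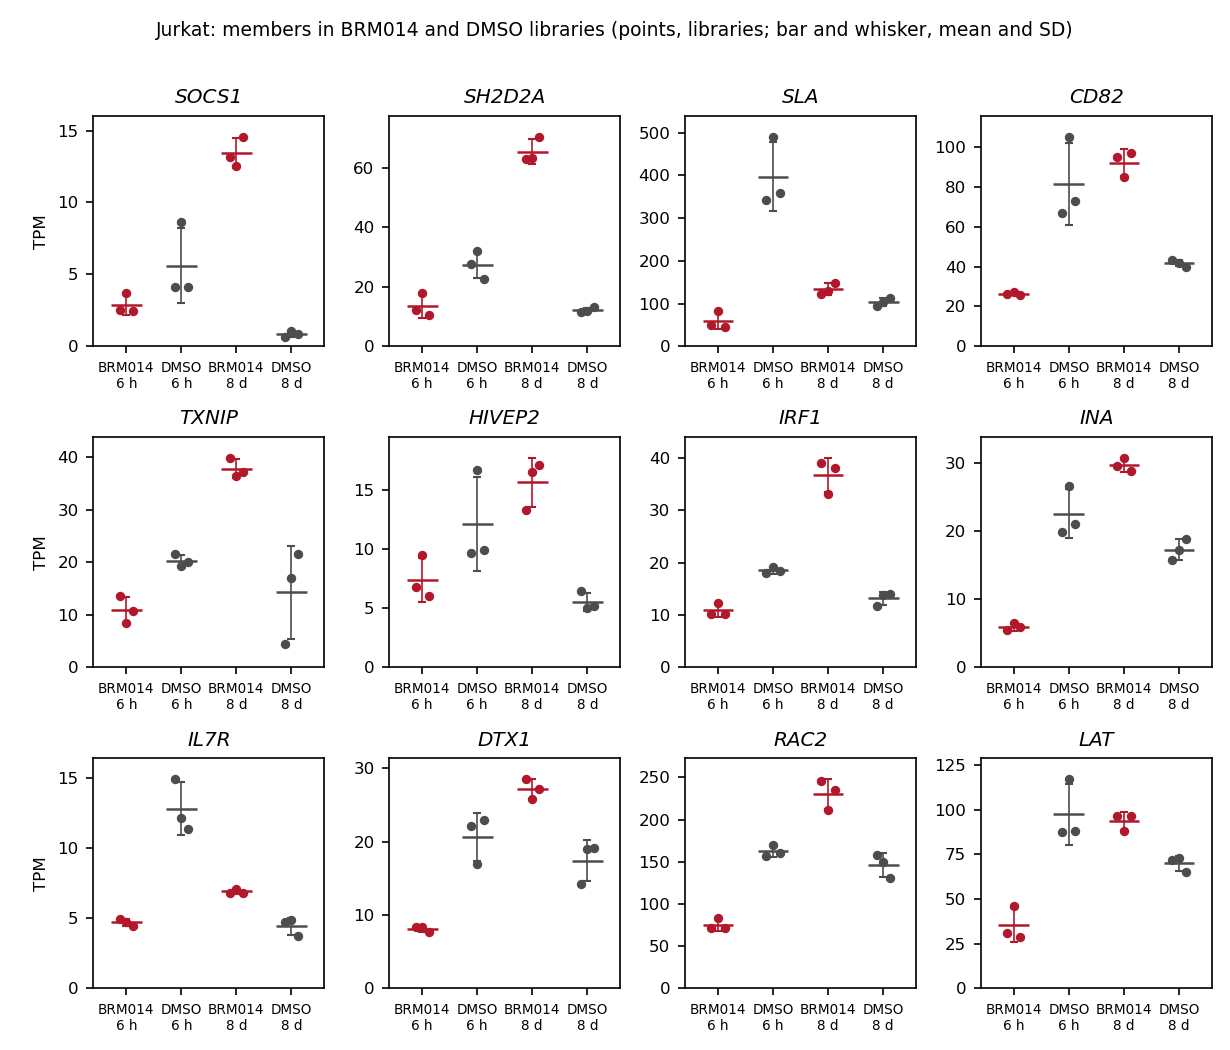
The 12 panels give TPM in Jurkat for 12 members in BRM014 6 h, DMSO 6 h, BRM014 8 d and DMSO 8 d. Each point is a library, and bar and whisker are mean and SD of 3 libraries. SOCS1, SH2D2A, IRF1 and TXNIP are highest in BRM014 8 d, while SLA and IL7R are highest in DMSO 6 h.

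Transcription and chromatin genes made up 11 members, with medians of -0.83 at 6 h and 0.58 at 8 d and a median difference between the DMSO groups of -0.00039. HIVEP2, a zinc finger factor that binds kappa B-like sites (chromosome 6, 142751469 to 142945733), had 6.74, 9.51 and 5.98 TPM with BRM014 at 6 h, against 9.65, 16.7 and 9.94 TPM with DMSO, and 13.3, 16.5 and 17.1 TPM with BRM014 at 8 d, against 6.43, 4.97 and 5.15 TPM with DMSO. Replicate 2 was the highest library in both 6 h groups. DTX1, a ubiquitin ligase induced by NOTCH signalling (chromosome 12, 113056730 to 113098025), had 8.41, 8.36 and 7.63 TPM with BRM014 at 6 h, against 22.1, 16.9 and 22.9 TPM with DMSO, and 28.5, 25.8 and 27.2 TPM with BRM014 at 8 d, against 14.2, 19.0 and 19.1 TPM with DMSO. SATB1, an organiser of chromatin in T cells (chromosome 3, 18345377 to 18445592), had 44.0, 47.6 and 42.0 TPM with BRM014 at 6 h, against 76.4, 74.5 and 72.0 TPM with DMSO, and 137, 145 and 144 TPM with BRM014 at 8 d, against 91.4, 89.3 and 98.6 TPM with DMSO. For DTX1 and SATB1 the 8 d BRM014 libraries lay above all 6 DMSO libraries, and the DMSO groups differed by -0.23 and 0.32.

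Cytoskeleton, scaffold and membrane genes made up 14 members, matrix and matrix-modifying genes 7, stress, transport and metabolism genes 8, and other protein-coding genes 5. INA, a neuronal intermediate filament protein (chromosome 10, 103277138 to 103290346), had 5.42, 6.56 and 5.91 TPM with BRM014 at 6 h, against 20.0, 26.7 and 21.1 TPM with DMSO, and 29.7, 30.8 and 28.8 TPM with BRM014 at 8 d, against 15.8, 17.2 and 18.9 TPM with DMSO. TXNIP, an inhibitor of thioredoxin induced by glucose (chromosome 1, 145992435 to 145996579), had 13.6, 8.53 and 10.7 TPM with BRM014 at 6 h, against 21.5, 19.3 and 20.0 TPM with DMSO, and 39.9, 36.5 and 37.2 TPM with BRM014 at 8 d, against 4.45, 17.0 and 21.6 TPM with DMSO. The DMSO 8 d library at 4.45 TPM sat far below the others of TXNIP, and the groups at 8 d did not overlap with or without it. DDIT4, a stress-induced brake on mTORC1 (chromosome 10, 72273924 to 72276036), had 21.6, 17.8 and 15.8 TPM with BRM014 at 6 h, against 36.8, 30.7 and 32.1 TPM with DMSO, and 71.0, 62.8 and 63.9 TPM with BRM014 at 8 d, against 43.1, 51.2 and 43.0 TPM with DMSO. Its DMSO groups differed by 0.45, so that the control at 8 d was the higher one.

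HSPA1B, an inducible heat shock protein (chromosome 6, 31827738 to 31830254), was the member whose BRM014 level at 8 d was not above that at 6 h. It had 2.47, 4.12 and 3.26 TPM with BRM014 at 6 h, against 4.53, 7.90 and 7.51 TPM with DMSO, and 3.65, 2.79 and 2.40 TPM with BRM014 at 8 d, against 1.37, 2.25 and 2.01 TPM with DMSO. The DMSO groups differed by -1.39. HSPA1A is a near-identical copy, and reads can be split between them, so the HSPA1B value is uncertain. The length listed for HSPA1B, 12586 bases, also exceeds the span named above, which makes its TPM level uncertain as well. HSPA1A averaged 2.02 ± 0.659 TPM with BRM014 and 4.14 ± 1.13 TPM with DMSO at 6 h, and 1.76 ± 0.430 TPM with BRM014 and 1.10 ± 0.190 TPM with DMSO at 8 d (SD, n = 3 each).

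The promoters of the 3 members with the largest turn between the time points that could be shown are given below, since these members share the pattern. They are RefSeq sequences on GRCh38.p14, 250 bases before to 50 bases after the start given in its promoter table, which for CD82 lies inside the gene span named above, 5′ to 3′ on the gene's strand. Capitals mark a match to 1 of 5 strings searched on both strands.
SOCS1, chr16:11256155-11256454, minus strand: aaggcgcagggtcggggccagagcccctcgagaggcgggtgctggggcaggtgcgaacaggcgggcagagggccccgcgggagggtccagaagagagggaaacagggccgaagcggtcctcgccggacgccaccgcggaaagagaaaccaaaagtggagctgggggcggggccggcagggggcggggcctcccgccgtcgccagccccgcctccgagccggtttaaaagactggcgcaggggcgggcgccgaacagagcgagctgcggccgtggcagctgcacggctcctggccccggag
CD82, chr11:44565413-44565712, plus strand: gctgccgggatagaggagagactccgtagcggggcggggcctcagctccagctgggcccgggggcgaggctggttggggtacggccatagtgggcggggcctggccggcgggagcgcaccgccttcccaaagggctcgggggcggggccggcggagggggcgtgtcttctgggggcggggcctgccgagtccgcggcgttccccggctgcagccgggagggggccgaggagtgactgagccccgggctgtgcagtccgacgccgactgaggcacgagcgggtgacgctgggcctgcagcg
INA, chr10:103276888-103277187, plus strand: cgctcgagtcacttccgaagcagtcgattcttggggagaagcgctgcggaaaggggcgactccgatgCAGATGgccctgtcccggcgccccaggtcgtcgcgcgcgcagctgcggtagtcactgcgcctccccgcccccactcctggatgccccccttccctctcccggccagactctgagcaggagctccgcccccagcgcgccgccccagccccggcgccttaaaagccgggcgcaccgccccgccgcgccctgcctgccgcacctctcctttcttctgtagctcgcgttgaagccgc
Of these 3, only the INA promoter held a searched string, CAGATG at position 68 counted from its first base. GC content was 74% for SOCS1, 76.7% for CD82 and 71.3% for INA. Over the 49 members with an entry the median was 67%, against 58.3% over 27305 promoters. The GATA-factor string AGATAA was in 4 of 49 members (8.16%) and in 10.5% of all promoters. TGTGGT, RUNX-like, was in 6 (12.2%) and 13.1%. CAGATG, an E-box of the TAL1 kind, was in 4 (8.16%) and 14.8%, CCGGAA, ETS-like, was in 3 (6.12%) and 17.6%, and CCAAT was in 19 (38.8%) and 35.7%. A match is a description of these letters only.

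Short and non-coding rows made up 12 members, 10 of them 130 bases or shorter. Libraries of poly(A) RNA count fragments of a host or primary transcript over such a row and not the mature microRNA. MIR7848 lies inside SLA on the same strand and had 2, 7 and 1 reads in BRM014 6 h libraries, against 38, 51 and 35 reads in DMSO 6 h libraries, and 14, 13 and 8 reads with BRM014 at 8 d, against 5, 5 and 6 reads with DMSO. MIR4754 had 4, 2 and 1 reads with BRM014 at 6 h, against 3, 50 and 1 reads with DMSO, and is a member through that single DMSO library. MIR671 lies inside CHPF2, and MIR142 lies 2437 bases from TSPOAP1 on the same strand, both also members. MIR142 had 120.5, 128 and 130.2 TPM with BRM014 at 6 h, against 248, 245 and 213 TPM with DMSO, and 359.6, 315 and 337 TPM with BRM014 at 8 d, against 143, 203 and 197 TPM with DMSO. It was the deepest of the short rows, with 138 to 510 reads a library. MIR142 overlaps TSPOAP1-AS1 on the opposite strand, and the Jurkat kit does not separate strands, so the MIR142 value is uncertain. TSPOAP1-AS1 averaged 50.9 ± 1.45 TPM with BRM014 and 59.8 ± 0.152 TPM with DMSO at 6 h. At 8 d it averaged 54.3 ± 2.35 TPM with BRM014 and 47.2 ± 1.17 TPM with DMSO (SD, n = 3 each).

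MIR142, a haematopoietic microRNA gene, gives rise to both arms printed here from RefSeq, with the seed (bases 2 to 8) in capitals, and their seeds differ.
hsa-miR-142-5p, chr17:58331283-58331303, minus strand: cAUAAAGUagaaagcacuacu
hsa-miR-142-3p, chr17:58331245-58331267, minus strand: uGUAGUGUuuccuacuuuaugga
MIR4520-1 and MIR4520-2 lie on opposite strands of one place. Their hairpins are shown with capitals for the stretch in which each reads as the other on the opposite strand.
MIR4520-1, chr17:6655440-6655509, minus strand: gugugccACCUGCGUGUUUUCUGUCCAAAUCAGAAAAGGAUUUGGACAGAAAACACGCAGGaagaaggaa
MIR4520-2, chr17:6655449-6655502, plus strand: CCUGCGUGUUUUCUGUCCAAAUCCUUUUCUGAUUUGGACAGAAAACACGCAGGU
All 54 bases of MIR4520-2 lie in the reverse complement of the 70 bases of MIR4520-1, so in the non-directional Jurkat libraries their reads cannot be told apart, with 9 to 44 reads a library under either name. AGAP2 and AGAP2-AS1 likewise overlap on opposite strands, and 28 members in all overlap a gene on the opposite strand.

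The guide groups took no part in the choice of members and asked where these genes stood at day 10 after guides to BAF subunits. SMARCA4 mRNA was lowered in its guide groups, at 44.2 ± 1.63 TPM in gSMARCA4 and 49.9 ± 2.35 TPM in gSMARCA4_A2, against 97.5 ± 2.41 TPM in gAAVS1 (SD, n = 3 each). SMARCA2 mRNA was 22.4 ± 0.288 TPM in libraries labelled gSMARCA4_A2, against 21.8 ± 0.931 TPM in gAAVS1 (limma, adjusted p = 0.67). ARID1A mRNA was 83.1 ± 3.38 TPM in gARID1A and 101 ± 5.07 TPM in libraries labelled gARID1A_1B, against 94.4 ± 0.697 TPM in gAAVS1. ARID1B mRNA was 11.9 ± 0.993 TPM in gARID1A_1B, against 22.7 ± 0.525 TPM in gAAVS1. A guide can disrupt a protein and leave its mRNA, so the mRNA shows SMARCA4 and ARID1B lowered and does not check SMARCA2 in gSMARCA4_A2 or ARID1A in gARID1A_1B. The 4 comparisons share the gAAVS1 libraries.

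More members rose than fell after SMARCA4 guides, as did all genes tested before rescaling. In gSMARCA4, 21 of 80 members rose and 9 fell at an adjusted p under 0.05 by limma over all genes tested, where 25.1% of all genes tested rose and 15.8% fell. In gSMARCA4_A2, 44 members rose and 7 fell, where 40.9% of all genes rose and 21.1% fell. The median difference of the members was 0.12 in gSMARCA4 and 0.32 in gSMARCA4_A2, against 0.04 and 0.11 over all genes tested. Rescaling the libraries by their median ratio moved the median of all genes in gSMARCA4_A2 by -0.14, and 34 members then rose and 12 fell, where 28% of all genes rose and 34% fell after rescaling. The share that rose in gSMARCA4 is close to that of all genes.

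ARID1A guides moved members both ways. In gARID1A, 17 members rose and 12 fell, where 7.72% of all genes tested rose and 13.2% fell. In gARID1A_1B, 26 rose and 21 fell, where 17% of all genes rose and 23.1% fell. Medians were 0.06 and 0.05 for the members and -0.03 in each over all genes tested. Cytokine, interferon and death-receptor genes were counted upward in 5 of 9 in gARID1A and 7 of 9 in gARID1A_1B, with IL7R falling in both and STAT3 falling in the second. Transcription and chromatin genes were counted downward in 5 of 11 in gARID1A and 7 of 11 in gARID1A_1B, and upward in 0 and 2. In gSMARCA4 and gSMARCA4_A2 the same cytokine and interferon class had 6 and 8 of 9 members upward and 1 downward in each. The transcription and chromatin class had 3 and 6 of 11 upward and 2 downward in each. Shares of all genes tested were 25.1% upward and 15.8% downward in gSMARCA4, and 40.9% and 21.1% in gSMARCA4_A2.

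**Figure D3:**
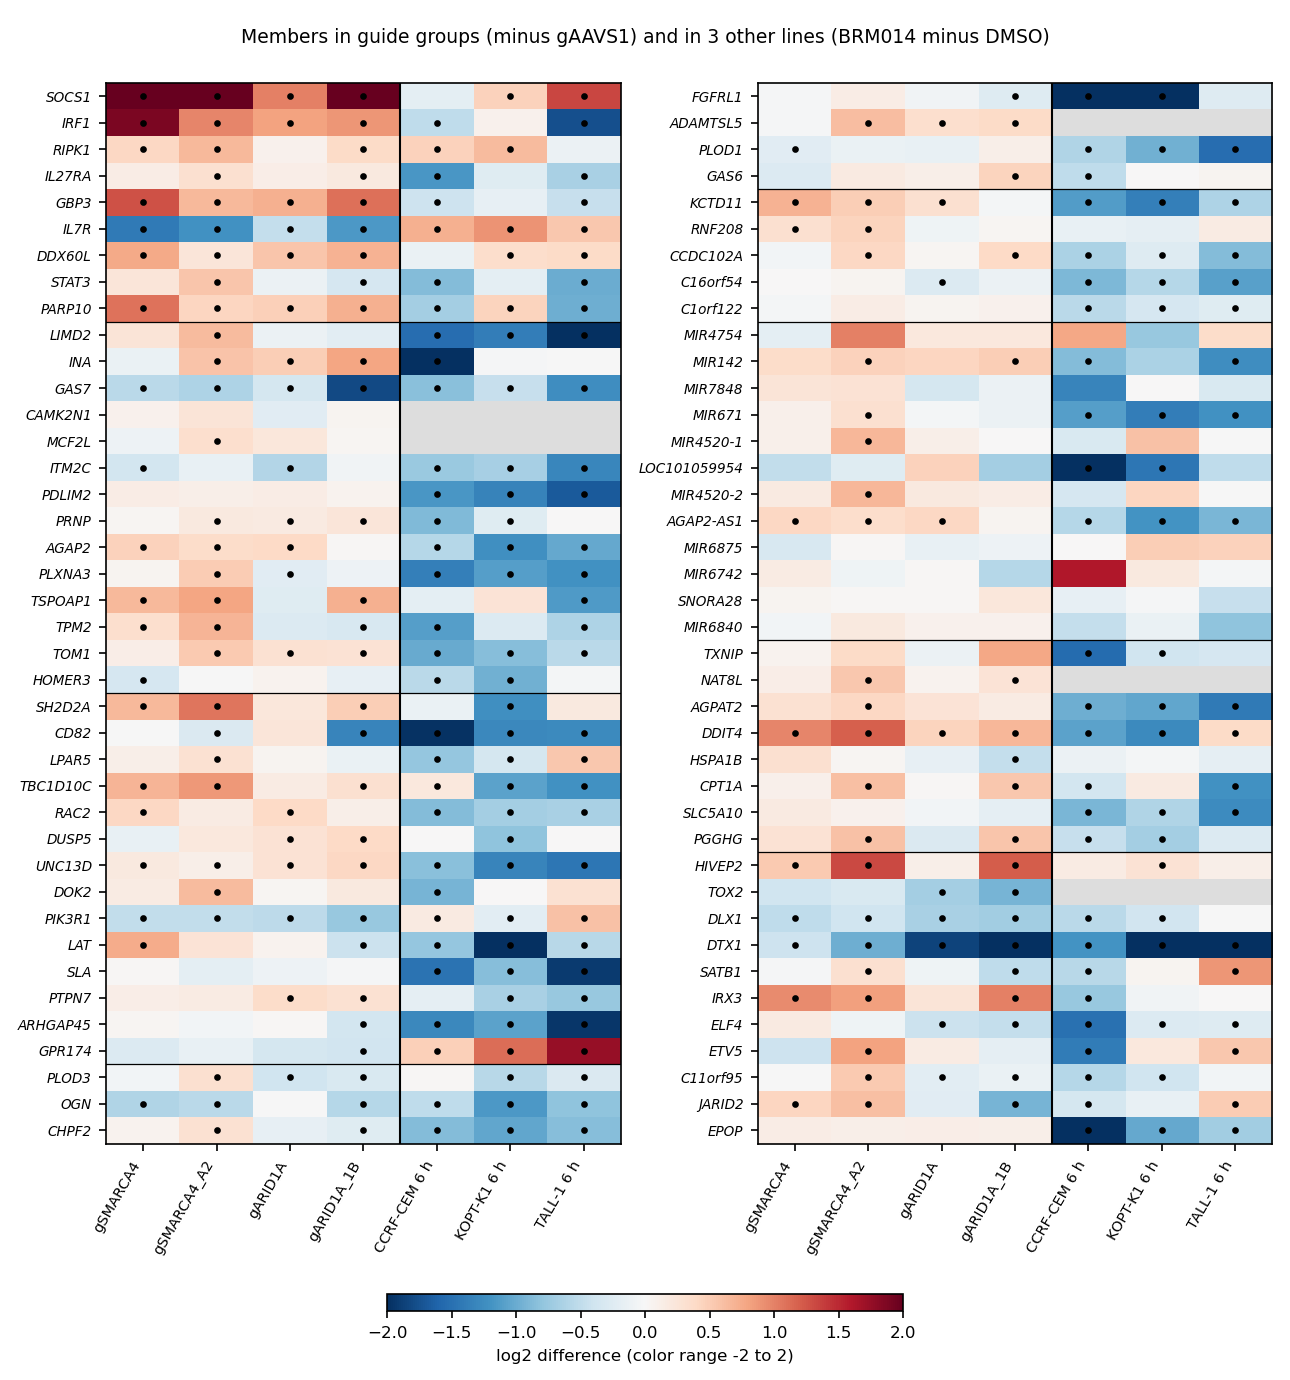
Each row is a member and each column a comparison, guide groups minus gAAVS1 to the left of the black line and BRM014 minus DMSO at 6 h in 3 other lines to the right. Color gives the log2 difference, a dot an adjusted p under 0.05 by limma and grey a gene not tested, and thin lines separate the 8 hand-made classes. Of 80 members 44 are called higher in gSMARCA4_A2, and of 75 tested members 52 are called lower in CCRF-CEM.

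SOCS1 rose in all 4 guide groups, with its largest difference in gARID1A_1B. It had 7.33, 10.6 and 12.4 TPM in gSMARCA4 and 2.60, 3.93 and 4.81 TPM in gARID1A. It had 102, 121 and 107 TPM in gARID1A_1B and 10.3, 9.48 and 10.9 TPM in gSMARCA4_A2, against 0.9896, 1.72 and 1.36 TPM in gAAVS1. Log2 differences were 5.57 ± 0.22 in gARID1A_1B (adjusted p = 7.6e-14), 2.26 ± 0.22 in gSMARCA4_A2 (adjusted p = 2.2e-08), 2.22 ± 0.22 in gSMARCA4 (adjusted p = 7.8e-08) and 1.00 ± 0.22 in gARID1A (adjusted p = 0.0022). In each of these groups all 3 guide libraries lay above all 3 gAAVS1 libraries. IRF1 had its largest difference in gSMARCA4, with 78.3, 66.8 and 67.2 TPM, against 18.2, 19.1 and 17.8 TPM in gAAVS1, a log2 difference of 1.89 ± 0.08 (adjusted p = 5e-14). It rose by log2 differences of 0.97 in gSMARCA4_A2, 0.81 in gARID1A and 0.88 in gARID1A_1B.

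Other members of the interferon kind rose beside IRF1. GBP3, an interferon-induced GTPase, rose by log2 differences of 1.28 in gSMARCA4, 0.65 in gSMARCA4_A2, 0.70 in gARID1A and 1.09 in gARID1A_1B. PARP10, a mono-ADP-ribosyltransferase, rose in the same 4 groups by log2 differences of 1.08, 0.43, 0.47 and 0.71. It overlaps GRINA on the opposite strand, which had 39.1 ± 1.96 TPM in gSMARCA4 and 47.4 ± 0.752 TPM in gSMARCA4_A2, against 24.8 ± 0.106 TPM in gAAVS1. DDX60L, a helicase-like interferon-induced protein, rose by log2 differences of 0.76 in gSMARCA4, 0.24 in gSMARCA4_A2, 0.55 in gARID1A and 0.69 in gARID1A_1B. Over a wider list of 30 interferon response genes tested, chosen with earlier results of these data known, 17 rose and 1 fell in gSMARCA4, 16 and 6 in gSMARCA4_A2, 10 and 3 in gARID1A, and 15 and 4 in gARID1A_1B. Of the 28 tested genes of a list of cytokine receptors, JAKs, STATs and SOCS proteins, 14 rose and 7 fell in gSMARCA4, 18 and 7 in gSMARCA4_A2, 3 and 9 in gARID1A, and 8 and 9 in gARID1A_1B. Over all genes tested, 25.1% rose and 15.8% fell in gSMARCA4, and 40.9% and 21.1% in gSMARCA4_A2. The shares were 7.72% and 13.2% in gARID1A, and 17% and 23.1% in gARID1A_1B.

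HIVEP2 and DDIT4 were also among the largest increases. HIVEP2 had 17.1, 16.0 and 14.8 TPM in gSMARCA4_A2 and 13.7, 15.2 and 15.0 TPM in gARID1A_1B, against 6.03, 5.96 and 5.32 TPM in gAAVS1, log2 differences of 1.33 ± 0.16 (adjusted p = 2.6e-07) and 1.21 ± 0.16 (adjusted p = 2.5e-06), and rose in gSMARCA4 by 0.52 (adjusted p = 0.011). DDIT4 had 112, 112 and 112 TPM in gSMARCA4_A2, against 54.7, 43.7 and 48.1 TPM in gAAVS1, a log2 difference of 1.19 ± 0.10 (adjusted p = 1.7e-09). It rose by 0.97 in gSMARCA4, 0.45 in gARID1A and 0.66 in gARID1A_1B on the log2 scale. SH2D2A rose by log2 differences of 0.65 in gSMARCA4, 1.07 in gSMARCA4_A2 and 0.48 in gARID1A_1B, values with the same uncertainty of strand. IRX3, a homeobox factor, rose by log2 differences of 0.95 in gSMARCA4, 0.82 in gSMARCA4_A2 and 1.01 in gARID1A_1B. SLA did not pass the test in any guide group, with differences between -0.19 and 0.03, and neither did TXNIP, with differences between -0.12 and 0.78.

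Some members that were higher at 8 d of BRM014 fell with guides. For DTX1 the controls stood at different levels, with every gAAVS1 library above every Jurkat DMSO library. Its gSMARCA4 libraries, lower than gAAVS1, still lay above the BRM014 8 d libraries. DTX1 had 37.6, 34.3 and 36.4 TPM in gSMARCA4, 25.6, 23.9 and 22.8 TPM in gSMARCA4_A2, 11.3, 13.6 and 13.1 TPM in gARID1A and 10.1, 8.36 and 8.00 TPM in gARID1A_1B, against 46.8, 52.9 and 45.8 TPM in gAAVS1. Its log2 differences were -0.41 in gSMARCA4 (adjusted p = 0.0041), -0.98 in gSMARCA4_A2 (adjusted p = 9.6e-08), -1.85 in gARID1A (adjusted p = 6.8e-11) and -2.34 in gARID1A_1B (adjusted p = 2.7e-13). IL7R had 0.989, 0.988 and 0.934 TPM in gSMARCA4 and 1.22, 1.56 and 1.376 TPM in gARID1A_1B, against 3.84, 4.99 and 4.00 TPM in gAAVS1, with log2 differences of -1.42 ± 0.10 (adjusted p = 1.9e-10) and -1.14 ± 0.10 (adjusted p = 5.1e-09). It also fell in gSMARCA4_A2 (-1.21) and gARID1A (-0.48).

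GAS7, a protein of actin-rich projections, had 11.9, 11.3 and 10.9 TPM in gARID1A_1B, against 45.9, 40.3 and 41.2 TPM in gAAVS1, a log2 difference of -1.81 ± 0.07 (adjusted p = 9.9e-15), and fell with log2 differences of -0.54, -0.62 and -0.36 in gSMARCA4, gSMARCA4_A2 and gARID1A. CD82 had 24.3, 24.5 and 24.8 TPM in gARID1A_1B, against 64.5, 63.6 and 59.7 TPM in gAAVS1, a log2 difference of -1.32 ± 0.10 (adjusted p = 1.6e-09). It fell with -0.28 in gSMARCA4_A2 (adjusted p = 0.023) and had 0.24 in gARID1A, which did not pass (adjusted p = 0.1). DLX1, a homeobox factor, fell with log2 differences of -0.51 in gSMARCA4, -0.40 in gSMARCA4_A2, -0.65 in gARID1A and -0.70 in gARID1A_1B. TOX2, an HMG-box factor, fell with a log2 difference of -0.93 in gARID1A_1B (adjusted p = 0.0014). In gARID1A its log2 difference was -0.67 (adjusted p = 0.027), a call lost without gAAVS1 replicate 1 or 2 or gARID1A replicate 2 or 3, at adjusted p of 0.067 to 0.09. ITM2C, a transmembrane protein, fell with log2 differences of -0.37 in gSMARCA4 and -0.59 in gARID1A. OGN, listed as the matrix proteoglycan osteoglycin, fell with log2 differences of -0.60 in gSMARCA4, -0.54 in gSMARCA4_A2 and -0.57 in gARID1A_1B, but overlaps CENPP on the opposite strand, which had 13.4 ± 0.0971 TPM in gSMARCA4 and 16.4 ± 0.889 TPM in gSMARCA4_A2, against 12.4 ± 0.511 TPM in gAAVS1.

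**Figure D4:**
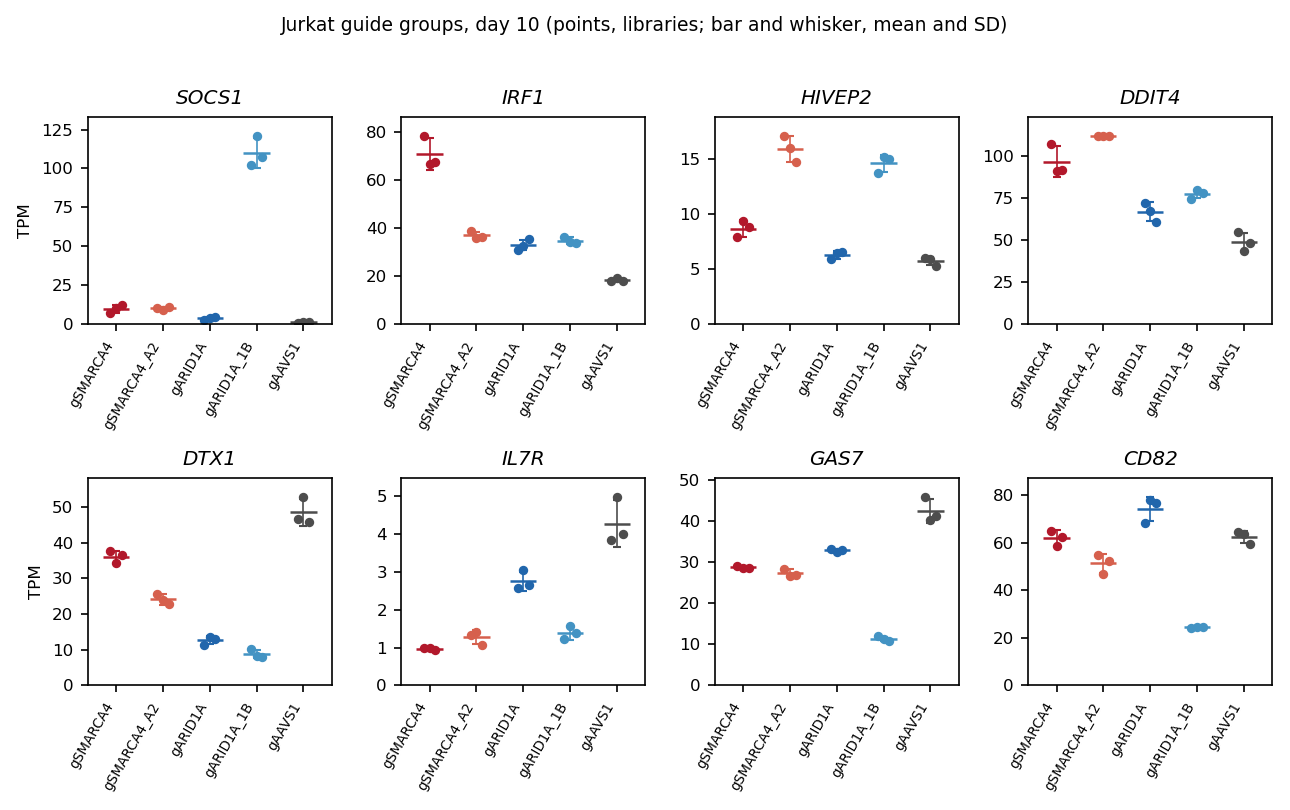
The 8 panels give TPM in Jurkat guide groups at day 10 for 8 members, gAAVS1 at the right of each. Each point is a library, and bar and whisker are mean and SD of 3 libraries. SOCS1 is far higher in gARID1A_1B than in any other group, DTX1 and IL7R are lower than gAAVS1 in all 4 guide groups, and CD82 is lowest in gARID1A_1B.

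A direct comparison of gSMARCA4_A2 with gARID1A_1B, which has no shared control, called 38 members higher and 7 lower in gSMARCA4_A2, where 43.2% of all genes tested were higher and 14% lower. The members' median difference was 0.27, against 0.16 over all genes tested. Rescaling by the median ratio moved the median of all genes by -0.16, and 22 members were then higher and 14 lower, where 24% of all genes were higher and 29.3% lower after rescaling. JARID2, a cofactor of Polycomb complex 2, had 63.0, 57.4 and 56.9 TPM in gSMARCA4_A2, against 21.1, 19.0 and 19.5 TPM in gARID1A_1B, a log2 difference of 1.52 ± 0.12 (adjusted p = 1.7e-09). DTX1 was higher in gSMARCA4_A2 by 1.36 ± 0.11 (adjusted p = 1.6e-09). SOCS1 was lower there by the largest margin of the members, with a log2 difference of -3.30 ± 0.22 (adjusted p = 2.5e-10), and DDX60L was lower with -0.46 ± 0.07 (adjusted p = 1.5e-05). In each of these 4 genes the libraries of the groups did not overlap.

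The 3 other lines asked whether the 6 h decrease of the members in Jurkat also appears where it was not used to choose them. Of 80 members, 75 could be tested there; CAMK2N1, TOX2, ADAMTSL5, NAT8L and MCF2L had too low values. In CCRF-CEM 52 of 75 fell and 5 rose with BRM014, where 20.9% of all genes tested fell and 28.9% rose. In KOPT-K1 43 fell and 7 rose, where 15.2% of all genes fell and 22.9% rose. In TALL-1 39 fell and 10 rose, where 19.3% of all genes fell and 26.6% rose. Median differences of the members were -0.63, -0.40 and -0.47 in these lines, against 0.05, 0.04 and 0.03 over all genes tested. As shares of the 75 tested members, 69.3%, 57.3% and 52% fell in CCRF-CEM, KOPT-K1 and TALL-1, and 27 of 75 members fell in all 3 lines, where 7.11% of all genes tested did.

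The members that fell in all 3 lines came from each of the classes except cytokine, interferon and death-receptor signalling. They were SLA, CD82, LAT, RAC2, UNC13D and ARHGAP45 among lymphocyte genes, LIMD2, GAS7, PDLIM2, ITM2C, AGAP2, PLXNA3 and TOM1 among cytoskeleton, scaffold and membrane genes, and DTX1, ELF4 and EPOP among transcription and chromatin genes. The others were KCTD11, CCDC102A, C16orf54, C1orf122, AGPAT2, SLC5A10, PLOD1, OGN, CHPF2, MIR671 and AGAP2-AS1. EPOP, an elongin and Polycomb partner, had a log2 difference of -2.08 ± 0.13 in CCRF-CEM (adjusted p = 6.3e-09). UNC13D primes cytotoxic granules for release, PDLIM2 is a LIM domain ubiquitin ligase, PLOD1 hydroxylates collagen lysines, and AGPAT2 makes phosphatidic acid. The cytokine and interferon class was mixed: of its 9 members 5 fell and 2 rose in CCRF-CEM, none fell and 5 rose in KOPT-K1, and 5 fell and 3 rose in TALL-1.

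DTX1 fell in all 3 lines although its level differed widely between them. It had 71.7, 67.2 and 65.9 TPM in KOPT-K1 with BRM014, against 378, 345 and 313 TPM with DMSO, a log2 difference of -2.32 ± 0.13 (adjusted p = 4e-09). In TALL-1 it had 28.1, 28.6 and 35.7 TPM with BRM014, against 271, 266 and 285 TPM with DMSO (-3.12 ± 0.13, adjusted p = 8.5e-11), and in CCRF-CEM 1.378, 0.839 and 1.74 TPM with BRM014, against 3.99, 5.03 and 3.74 TPM with DMSO (-1.19 ± 0.13, adjusted p = 2.4e-06). The decrease was smaller in CCRF-CEM than in TALL-1 by 1.93 (adjusted p = 3e-06), where the low level in CCRF-CEM limits a difference on the log2(TPM + 1) scale.

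Several T cell signalling members were among the genes that fell in all 3 lines. LAT had 53.1, 47.2 and 50.8 TPM in KOPT-K1 with BRM014, against 236, 229.8 and 222 TPM with DMSO, a log2 difference of -2.17 ± 0.10 (adjusted p = 5.8e-10), and fell with log2 differences of -0.77 in CCRF-CEM and -0.55 in TALL-1. SLA had 114, 108 and 108 TPM in TALL-1 with BRM014, against 401, 412 and 434 TPM with DMSO, a log2 difference of -1.91 ± 0.06 (adjusted p = 3.4e-12), and fell with log2 differences of -1.47 in CCRF-CEM and -0.85 in KOPT-K1. CD82 fell with log2 differences of -1.98, -1.29 and -1.27 in CCRF-CEM, KOPT-K1 and TALL-1, and RAC2 with -0.87, -0.69 and -0.64. ARHGAP45, a GTPase-activating protein of blood cells, had 12.5, 13.7 and 12.1 TPM in TALL-1 with BRM014, against 52.0, 48.7 and 55.2 TPM with DMSO, a log2 difference of -1.94 ± 0.07 (adjusted p = 9.2e-12). LIMD2, a LIM domain protein, fell in TALL-1 with a log2 difference of -2.37 ± 0.10 (adjusted p = 1.3e-10). Of 53 tested genes of a list of T cell receptor signalling and T cell surface genes, 32 fell and 8 rose in CCRF-CEM, 30 and 8 in KOPT-K1, and 25 and 11 in TALL-1. Over all genes tested, 20.9% fell and 28.9% rose in CCRF-CEM, 15.2% and 22.9% in KOPT-K1, and 19.3% and 26.6% in TALL-1.

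Other decreases were called in 1 or 2 lines, in some cases with the gene near 0 in another. INA had 0.319, 0.916 and 0.592 TPM in CCRF-CEM with BRM014, against 6.65, 9.27 and 7.11 TPM with DMSO, a log2 difference of -2.44 ± 0.12 (adjusted p = 7.1e-10), and averaged at most 0.0248 TPM in any group of KOPT-K1 and TALL-1. FGFRL1, a decoy-like fibroblast growth factor receptor, fell with a log2 difference of -2.15 ± 0.13 in CCRF-CEM (adjusted p = 8.1e-09) and -2.15 ± 0.13 in KOPT-K1 (adjusted p = 1.3e-08), and in TALL-1 it averaged 0.876 ± 0.270 TPM with DMSO. LOC101059954 fell with log2 differences of -2.15 in CCRF-CEM and -1.44 in KOPT-K1. DUSP5, a phosphatase of nuclear ERK, was listed at 0 in every library of CCRF-CEM and TALL-1 and fell with a log2 difference of -0.80 in KOPT-K1.

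Both GPR174 and IL7R went the other way in all 3 lines, where 12.3% of all genes tested rose in all 3. GPR174, a lysophosphatidylserine receptor of lymphocytes (chromosome X, 79144688 to 79175318), had 49.5, 51.5 and 40.8 TPM in TALL-1 with BRM014, against 14.0, 14.64 and 11.5 TPM with DMSO, a log2 difference of 1.75 ± 0.11 (adjusted p = 4.3e-09). It rose by log2 differences of 1.12 in KOPT-K1 (adjusted p = 8.3e-07) and 0.48 in CCRF-CEM (adjusted p = 0.0015). IL7R had 44.9, 46.4 and 42.3 TPM in KOPT-K1 with BRM014, against 23.4, 23.6 and 23.5 TPM with DMSO, a log2 difference of 0.89 ± 0.13 (adjusted p = 6.2e-05), and rose by log2 differences of 0.71 in CCRF-CEM (adjusted p = 0.00034) and 0.54 in TALL-1 (adjusted p = 0.0031). In Jurkat at 6 h, whose table, kit and extraction differ, the differences were -0.76 for GPR174 and -1.27 for IL7R. A difference between Jurkat and the other lines was not tested.

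SOCS1 rose in TALL-1, with 7.18, 6.03 and 8.32 TPM with BRM014, against 1.90, 2.03 and 2.79 TPM with DMSO, a log2 difference of 1.34 ± 0.16 (adjusted p = 7e-06). In KOPT-K1, where it was abundant, it had 196, 181 and 195 TPM with BRM014, against 139, 141 and 137 TPM with DMSO (0.45 ± 0.16, adjusted p = 0.037), a call lost in 10 alternative settings at adjusted p of 0.057 to 0.095. In CCRF-CEM its difference was -0.20 (adjusted p = 0.33). RIPK1, a kinase of death-receptor signalling, rose by log2 differences of 0.46 in CCRF-CEM (adjusted p = 6e-05) and 0.63 in KOPT-K1 (adjusted p = 4.3e-06). In TALL-1, SATB1 rose by a log2 difference of 0.88 (adjusted p = 7.3e-06) and PIK3R1, the regulatory subunit of PI3 kinase, by 0.59 (adjusted p = 3.4e-08). SATB1 fell in CCRF-CEM with -0.56 (adjusted p = 5e-04), while PIK3R1 rose in CCRF-CEM by 0.18 and fell in KOPT-K1 with -0.21.

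The size or direction of the response differed between lines for part of the members, by limma's test of the difference between responses. CCRF-CEM minus KOPT-K1 gave 11 members with a higher and 23 with a lower response, where 8.62% and 9.72% of all genes tested were called. CCRF-CEM minus TALL-1 gave 17 and 23, where 10.5% and 9.85% of all genes were called, and KOPT-K1 minus TALL-1 gave 17 and 14, where 11.2% and 10.1% were. IRF1 was one of these. It had 19.3, 19.8 and 19.1 TPM in TALL-1 with BRM014, against 68.6, 65.6 and 68.7 TPM with DMSO (-1.75 ± 0.04, adjusted p = 8.9e-13), and 116, 126 and 119.9 TPM in KOPT-K1 with BRM014, against 115, 116 and 110.0 TPM with DMSO (0.09 ± 0.04, adjusted p = 0.13). The difference between these responses was 1.84 ± 0.06 (adjusted p = 1.4e-10). TBC1D10C, an inhibitor of Ras and calcineurin signalling, fell with log2 differences of -1.07 in KOPT-K1 and -1.21 in TALL-1 and had 128, 134 and 130.3 TPM with BRM014, against 116, 108 and 113 TPM with DMSO, in CCRF-CEM (0.22 ± 0.06, adjusted p = 0.0063, or 0.084 after rescaling by the median ratio).

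**Figure D5:**
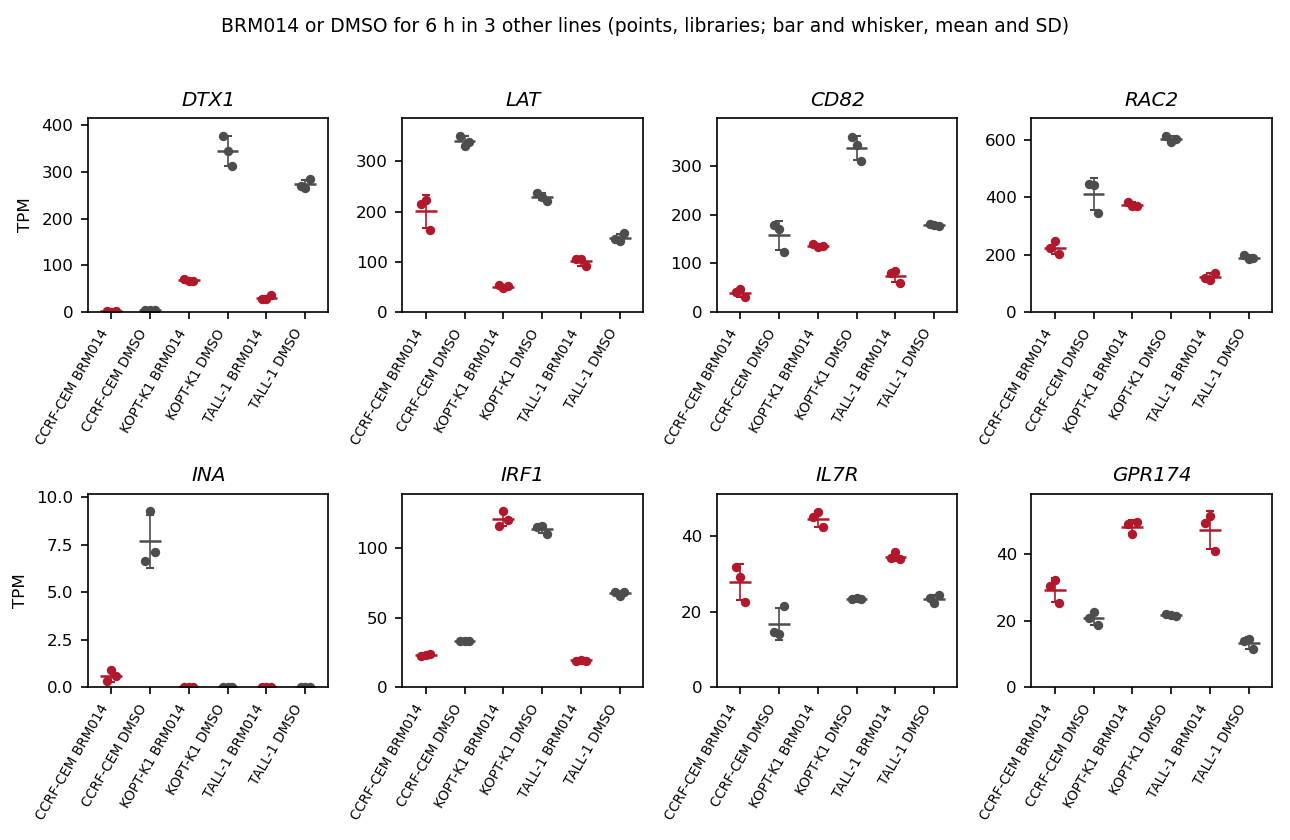
The 8 panels give TPM after 6 h of BRM014 (red) or DMSO (grey) in CCRF-CEM, KOPT-K1 and TALL-1 for 8 members. Each point is a library, and bar and whisker are mean and SD of 3 libraries. DTX1, LAT, CD82 and RAC2 are lower with BRM014 in all 3 lines, IL7R and GPR174 are higher in all 3, and INA is near 0 outside CCRF-CEM.

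The choice of members rested more on some libraries than on others. Replicate 2 was the highest of 3 libraries at 6 h in 64 of 80 members with BRM014 and in 61 of 80 with DMSO, where it was highest in 50.5% and 41.5% of all genes tested. Without BRM014 6 h replicate 2, 113 genes would meet the limits, all 80 members among them. Without DMSO 6 h replicate 2, 75 would, of which 64 are members. At 8 d, DMSO replicate 1 was the highest of 3 libraries in 46 of 80 members and in 53.7% of all genes tested. Without it, 90 genes would meet the limits, 78 of them members. Rescaling the libraries by their median ratio gave 82 genes, 66 of them members, and leaving out mitochondrially encoded genes, which took 20.0 to 24.9% of TPM in Jurkat, gave 89, 79 of them members.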

How the data were processed

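Poly(A) RNA was sequenced in 45 libraries, 3 per group. Per the submitters' processing notes, HISAT2 2.2.1, featureCounts 2.0.3 and DESeq2 1.38.2 were used with build hg38, and the gene annotation and the strand setting of counting are not given in the sources used here. The authors deposited TPM for 38557 genes, with Jurkat in a table of its own and the remaining lines in another, and a gene length in bases beside each gene. For the members HSPA1B, EPOP and KCTD11 that length exceeds the RefSeq span of the gene, so their TPM level is uncertain. Every library sums to 1e+06 TPM, so a change in abundant genes shifts all others. TPM times length gave whole reads within 0.01 for 100% of genes above 0. No per-sample column was left unused, and no replicates were identical, where chi-square divided by its degrees of freedom was 2.48 to 44.3. The highest values were those of TALL-1 DMSO replicate 3, at 44.3 and 43.6, against 3.26 between replicates 1 and 2. CCRF-CEM replicate 3 had 20.3 and 27.4 in DMSO against 4.73, and 25.0 and 36.0 in BRM014 against 4.92. Jurkat DMSO 8 d replicate 1 had 18.5 and 27.6, against 7.36 between replicates 2 and 3.

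The tests covered genes that reached 1 TPM in 3 or more libraries, which left 17936 genes for Jurkat and 16241 for the table of CCRF-CEM, KOPT-K1 and TALL-1. Differences of log2(TPM + 1), which understate the change of low genes, were fitted with limma 3.58.1 in R 4.3.3 (lmFit, contrasts, eBayes with trend and robust), all groups of a table in 1 fit, with Benjamini-Hochberg adjustment over all genes tested and a threshold of 0.05. The fit was also run on simulated counts, drawn independently with a fixed setting of spread and no differences shared by replicates. That run does not speak for libraries with such differences. A ± beside a log2 difference is the standard error and beside a TPM mean the SD of 3 libraries. Unless a sentence says otherwise, in each called gene named all 3 libraries of one group lay beyond all 3 of the other. For OGN in CCRF-CEM this held for 2 libraries. The values of 1 overlapping gene are not reported here.

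Members, lists, classes and tests were chosen with earlier results of these data known. Named members were the 8 with the largest turn between time points, the 4 most abundant, the 4 with the largest shift between the DMSO groups, up to 4 per direction in each comparison with a control, up to 2 in the other comparisons, those on the gene lists, those at the limits, and those called in 1 direction in all 3 other lines. Positions and sequences are from RefSeq on GRCh38.p14, where 78 members matched by symbol and 1 by synonym. In the same-number check of replicates, every correlation of a comparison had to pass a threshold of 0.1. Correlations were 0.119, 0.286 and 0.447 in CCRF-CEM, where all passed. Elsewhere the lowest correlation missed the threshold, though single ones passed it, as in Jurkat at 6 h with 0.172, 0.296 and 0.091. Alternatives were pseudocount 0.1, no filter or 5 TPM, median-ratio rescaling, mitochondrial genes left out, another eBayes setting, fewer groups in the fit, limma-voom on recovered reads, the replicate block, and each library left out.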

Additional observations from a re-analysis of the deposited data

Results flagged for a closer look

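The 6 h response of the members to BRM014 differed between the 3 other lines by limma's test of the difference itself. CCRF-CEM minus KOPT-K1 gave 11 members with a higher and 23 with a lower response, where 8.62% and 9.72% of all genes tested were called. CCRF-CEM minus TALL-1 gave 17 and 23, where 10.5% and 9.85% were called. KOPT-K1 minus TALL-1 gave 17 and 14, where 11.2% and 10.1% were called.

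LAT fell less in CCRF-CEM than in KOPT-K1, with a difference between the log2 responses of 1.39 ± 0.14 (adjusted p = 5.3e-06). TBC1D10C differed between CCRF-CEM and KOPT-K1 by 1.28 ± 0.08 (adjusted p = 1.1e-07) and between CCRF-CEM and TALL-1 by 1.43 ± 0.08 (adjusted p = 2.1e-08), with 131 ± 3.09 TPM with BRM014 and 112 ± 4.30 TPM with DMSO in CCRF-CEM. DTX1 fell less in CCRF-CEM than in TALL-1, by 1.93 ± 0.18 (adjusted p = 3e-06).

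For INA the difference of CCRF-CEM from KOPT-K1 was -2.42 ± 0.17 and from TALL-1 -2.42 ± 0.17. Its mean was at most 0.0248 TPM in any group of those lines, where it had no room to fall, so these values restate its decrease in CCRF-CEM. ETV5, an ETS family factor, had 17.3 ± 0.394 TPM with BRM014 and 47.6 ± 4.31 TPM with DMSO in CCRF-CEM (SD, n = 3 each). Its log2 response differed from KOPT-K1 by -1.62 ± 0.12 (adjusted p = 2.4e-07) and from TALL-1 by -1.94 ± 0.12 (adjusted p = 2.6e-08). ETV5 averaged at most 1.66 TPM in any group of those lines, which left little room for a decrease there.

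IRF1 responded less in KOPT-K1 than in TALL-1, by 1.84 ± 0.06 (adjusted p = 1.4e-10). PARP10 had 129.8 ± 6.30 TPM with BRM014 and 95.4 ± 8.32 TPM with DMSO in KOPT-K1, and 48.7 ± 3.78 TPM with BRM014 and 96.3 ± 6.12 TPM with DMSO in TALL-1 (SD, n = 3 each), a difference between the log2 responses of 1.41 ± 0.12 (adjusted p = 1.1e-06). FGFRL1 differed by -1.89 ± 0.19 (adjusted p = 5.4e-06), with 0.876 ± 0.270 TPM in TALL-1 with DMSO and so little room to fall there. DDIT4 had 3.91 ± 0.236 TPM with BRM014 and 11.0 ± 1.90 TPM with DMSO in KOPT-K1, and 326 ± 54.1 TPM with BRM014 and 247 ± 2.98 TPM with DMSO in TALL-1 (SD, n = 3 each), a difference of -1.67 ± 0.17 (adjusted p = 5.1e-06).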

How the results depend on the processing

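A lower limit of 1 TPM in DMSO at 6 h raised the members to 136, a pseudocount of 0.1 gave 116, and leaving out 1 library gave 75 to 113. After median-ratio rescaling, gSMARCA4_A2 against gAAVS1 had 12 members lower, gSMARCA4_A2 against gARID1A_1B had 22 higher and 14 lower, CCRF-CEM had 3 higher and KOPT-K1 had 4 higher. The shares of all genes tested after rescaling were 34% lower in the first of these comparisons, and 24% higher and 29.3% lower in the second. They were 22% higher in CCRF-CEM and 16.9% higher in KOPT-K1. For gSMARCA4_A2 against gARID1A_1B, 11 members were lower with limma-voom and 13 with only these groups in the fit. The cause was not tested. The other 195 counts of members, and all 180 with a library left out, were within 1.5 times the main count. Leaving out a library gave 37 to 42 members higher in gSMARCA4_A2 and 49 to 54 lower in CCRF-CEM. In the main fit, 40.9% of all genes tested were higher in gSMARCA4_A2 and 20.9% lower in CCRF-CEM. Such shares were not counted with a library left out, with limma-voom or with fewer groups in the fit. Of the named genes, 1137 values kept direction and call and 15 lost the call, in TOX2, TBC1D10C and SOCS1, and none reversed.

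With the replicate block, 53 members fell and 5 rose in CCRF-CEM, where the same-number check passed, and no count there moved by over 1.5 times. In the other comparisons the check did not pass its threshold, and whether their libraries are paired by number is not known. Blocked counts were 46 lower and 8 higher in KOPT-K1, 38 lower and 10 higher in TALL-1, and 43 higher and 7 lower in gSMARCA4_A2. The shares of all genes called were not counted with the block. As a hint from the data, each library correlated best with its own number in gARID1A_1B, in TALL-1 and KOPT-K1, and in Jurkat at 6 h.

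Depth limits the short rows, with 0 to 50 reads a library in MIR4754, while protein-coding members had at least 10 reads in every BRM014 and DMSO library and a median of 858.5. With 3 libraries a group, exact permutation could not go below 0.10 for a single gene. Strand could not be separated in Jurkat.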
